A study of Mus musculus with 23 samples.

Results

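The red cell membrane and transport genes described here are Slc4a1, Ank1, Epb42, Sptb, Rhag, Aqp1, Car1 and Car2. They were chosen by name, and all 8 were found among the 24475 genes of the expression table, Epb42 under the older symbol Epb4.2 with the same gene identifier. RNA sequencing covered 23 mouse libraries. Thymus of normal C57BL/6 mice gave 6 control libraries (thymus). The 14 WT T-ALL libraries came from spleens of BALB/c Rag2-/-Il2rg-/- mice with T-cell acute lymphoblastic leukemia, T-ALL, that followed the placing of 1 wild-type thymus lobe under the kidney capsule. The 3 Notch3 KO T-ALL libraries came from spleens of such mice that had received a Notch3 knockout thymus. By the study's methods the lobe came from a 1-day-old mouse, wild-type donors were of the CD45.1 line B6.Ly5.1, hosts were 6 to 8 weeks old, and the tumors arose without further treatment. Hosts lack lymphocytes of their own because of the Rag2 and Il2rg deletions but keep other blood cells, including the red cell lineage, and the spleen cells sequenced are not labeled as sorted. Tissue (thymus or spleen) and host strain therefore part with leukemia in both comparisons with thymus and cannot be told apart from it. Libraries are named by the number in their label.

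Mature red cells carry a membrane held in shape by a spectrin lattice. Ankyrin and protein 4.2 tie that lattice to band 3, the anion exchanger that swaps chloride for bicarbonate, and band 3 sits beside the Rh complex and the water channel aquaporin-1. Carbonic anhydrases inside the cell convert carbon dioxide to bicarbonate and back. The genes are switched on as erythroblasts mature in bone marrow and, in mice, also in spleen. Most of the 8 are little used outside the red cell lineage, but Aqp1 is also a gene of endothelium and kidney, and Car2 is used by many tissues.

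RefSeq promoter sequence on GRCm38.p6 was at hand for 4 of the 8 members (Epb42, Sptb, Rhag and Aqp1), and the 250 bases before the RefSeq start of each are shown because these genes moved together across the tumors. Capitals mark the 5 letters GATAA or their complement TTATC, the core bound by GATA factors, and CACCC or its complement GGGTG, the core bound by Klf-type factors such as Klf1. The letters were searched on both strands, and no match of one motif overlapped a match of the other. The windows lie at chr2:121036878-121037127 on the minus strand (Epb42), chr12:76710548-76710797 on the minus strand (Sptb), chr17:40810899-40811148 on the plus strand (Rhag) and chr6:55336049-55336298 on the plus strand (Aqp1).
Epb42: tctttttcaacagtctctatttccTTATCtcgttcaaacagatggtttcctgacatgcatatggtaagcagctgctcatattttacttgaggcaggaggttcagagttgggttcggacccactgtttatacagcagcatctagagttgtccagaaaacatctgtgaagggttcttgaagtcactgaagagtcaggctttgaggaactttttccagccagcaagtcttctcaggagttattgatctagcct
Sptb: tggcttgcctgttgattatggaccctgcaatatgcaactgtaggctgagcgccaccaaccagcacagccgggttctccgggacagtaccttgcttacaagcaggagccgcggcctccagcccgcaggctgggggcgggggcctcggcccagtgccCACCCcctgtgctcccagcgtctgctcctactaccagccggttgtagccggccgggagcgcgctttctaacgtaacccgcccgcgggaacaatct
Rhag: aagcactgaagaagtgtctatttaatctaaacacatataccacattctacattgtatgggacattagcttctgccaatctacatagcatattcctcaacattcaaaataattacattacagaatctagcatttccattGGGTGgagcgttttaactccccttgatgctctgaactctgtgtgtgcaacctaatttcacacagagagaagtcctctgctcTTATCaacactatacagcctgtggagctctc
Aqp1: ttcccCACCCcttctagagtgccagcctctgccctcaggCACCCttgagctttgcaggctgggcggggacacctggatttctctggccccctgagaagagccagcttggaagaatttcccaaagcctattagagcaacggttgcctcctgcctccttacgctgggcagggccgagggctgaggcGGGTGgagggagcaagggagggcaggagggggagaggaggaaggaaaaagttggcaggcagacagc

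The Rhag window held both motifs, TTATC beginning 31 bases and GGGTG beginning 112 bases before the start. Epb42 held 1 TTATC, 226 bases before its start, and no CACCC. Sptb held 1 CACCC at 95 bases and Aqp1 held 3, at 245, 211 and 66 bases, and neither held GATAA. Over all 32851 RefSeq windows of this length, 22.6% held GATAA, 52% held CACCC and 10.1% held both on either strand. With shares this large, single matches in 4 windows are a description of the letters only. The windows also differed in base composition, with a GC content of 39.2% for Rhag, 43.2% for Epb42, 62% for Aqp1 and 65.2% for Sptb, against a median of 52.4% over all windows.

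All values below are log2(scaled RPKM + 1) unless another unit is named, where RPKM counts reads relative to transcript length and library size and was scaled so that the 75th percentile of each library is the same. They are per length and can be compared between genes. The offset of 1 is part of the deposited values, so differences understate the fold change of genes that are low in 1 group. No counts were used here, and the study's methods give 1 approximate depth for all libraries, so the depth of single libraries is unknown. Between 10154 and 11011 genes per library had a scaled RPKM of at least 1. Notch3 itself, examined as a check of the labels, had values of 2.62 to 4.29 in thymus, of 3.17 to 5.78 in WT T-ALL and of 2.59 to 3.74 in the knockout tumors, so the knockout libraries were not free of Notch3 RNA and overlapped WT T-ALL. By the study's methods the knockout allele carries an insertion in the first coding exon, and host cells keep an intact gene, so this check is weak. The libraries also fell into sets that no label names. At 4 genes that are no members (Sco2, Srsf4, Nr2c2ap and 1110002L01Rik), 9 libraries lay above the other 14 without overlap, and these 9 (set A) are thymus 5 and 6, WT T-ALL 3, 4, 5 and 7 and all 3 Notch3 KO libraries. The other 14 libraries are called set B. Thymus controls 2 and 4 were almost alike across genes (Pearson r = 0.995), as were 1 and 3 (r = 0.994), while every other pair of controls but 5 and 6 (r = 0.988) was at or below 0.984. WT 7 stood apart in its mitochondrial genes, which made up 44.5% of its summed scaled RPKM, against 9.84% to 20.2% in the other WT T-ALL libraries.

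In normal thymus, 7 of the 8 members were near 0. Rhag, which encodes the Rh-associated glycoprotein, was listed at 0 in 5 controls and at 0.041 in thymus 1. Slc4a1, the gene of band 3, lay between 0.024 and 0.18 with a median of 0.091. Sptb, encoding erythroid β-spectrin, lay between 0.16 and 0.38 with a median of 0.36. It was the only one of these 7 above 0.21 in any control. Car2 was the exception, with values from 2.48 to 3.30 and a median of 3.04.

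All 8 members were higher in both T-ALL groups than in thymus, and no T-ALL library reached down to the highest control for any of them. The question this comparison carries is how leukemic spleens differ from the normal tissue of T-cell origin. In WT T-ALL against thymus all 8 were called higher (limma across 11919 genes, Benjamini-Hochberg adjusted p under 0.05), where 29.3% of all genes tested were called higher. Libraries of the groups did not overlap for 8 of 8 members, and 8.42% of all genes showed that separation. In Notch3 KO T-ALL against thymus all 8 were again called higher, against 21.2% of all genes, and again none overlapped, against 23.9%. Both comparisons use the same 6 controls. Of the 8, 7 reached a scaled RPKM of 1 in no control, so they entered the test only through the leukemic libraries and had to differ, and Car2 alone did not depend on them for its entry. The p-values against thymus printed below for these 7 genes carry that limit and are not evidence of their own. The median difference of the members was 4.07 in WT T-ALL and 6.01 in Notch3 KO T-ALL, beside 0.08 in each case over all genes tested. In bulk samples such as these, fewer cells of a type and less RNA per cell cannot be told apart.

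**Figure D1:**
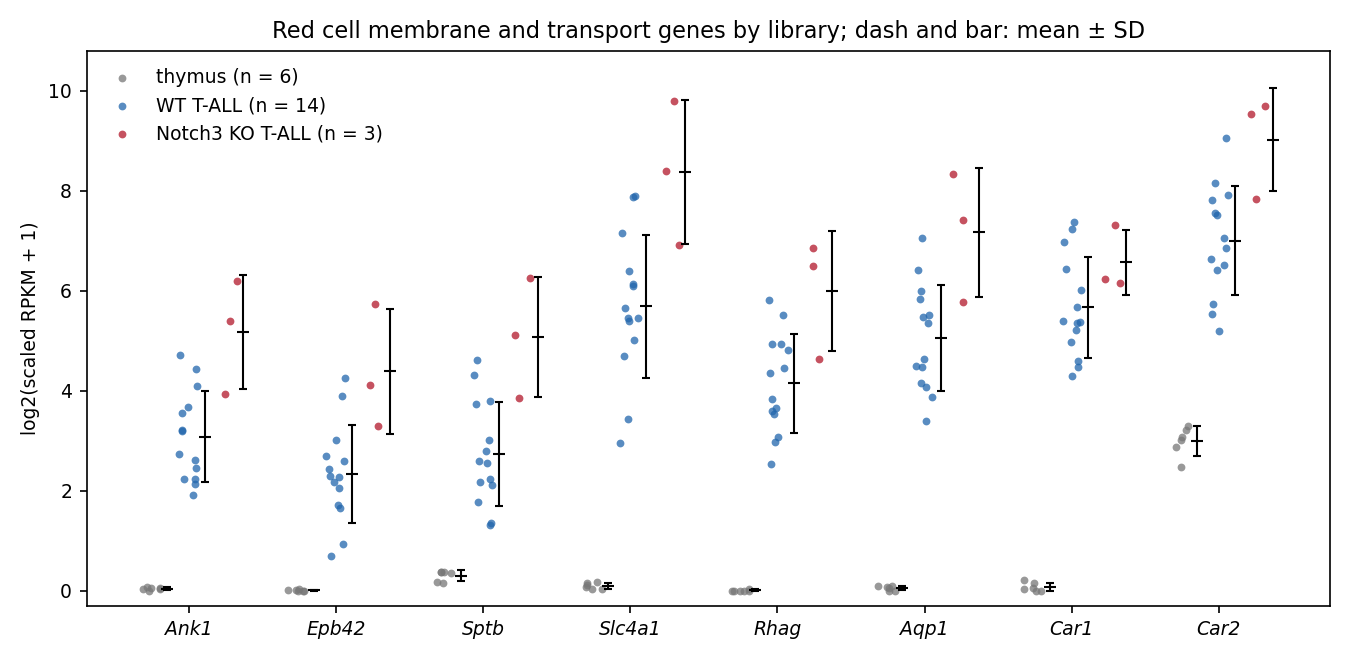
Expression of the 8 genes in every library on the log2(scaled RPKM + 1) axis, with thymus (n = 6) in gray, WT T-ALL (n = 14) in blue and Notch3 KO T-ALL (n = 3) in red; dashes with bars are group mean ± SD. All controls lie near 0 except for Car2, whose controls run from 2.48 to 3.30, and every T-ALL library lies above every control.

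Among the transport proteins, Slc4a1 reached the highest levels. Its 14 WT T-ALL values ran from 2.95 (WT 7; 3.44 in WT 5, the next lowest) to 7.89 (WT 111) with a median of 5.55, and the Notch3 KO libraries stood at 6.92, 9.79 and 8.40. The top value corresponds to a scaled RPKM of 886.6, beside 6.7 in the lowest WT T-ALL library. Slc4a1 lies on chromosome 11 (102348824 to 102366203, minus strand) and overlaps no other annotated gene.

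Aqp1, the water channel, ran from 3.39 to 7.05 in WT T-ALL with a median of 5.00, and stood at 5.78, 8.33 and 7.41 in the knockout libraries. Control values were between 0 and 0.092, so the group ranges were far apart. Since Aqp1 is also an endothelial gene, the endothelial markers were read beside it. Of these 9 genes, 6 were tested, and 5 of them rose and 1 (Pecam1) fell in WT T-ALL against thymus. Among all genes tested, 29.3% rose and 22.3% fell there. Their summed scaled RPKM spanned 32.6 to 39.4 in thymus, 25.5 to 58.3 in WT and 38.8 to 49.1 in Notch3 KO tumors. That sum was mostly Pecam1, which averaged 34.6 scaled RPKM in thymus, 27.5 in WT T-ALL and 24.7 in Notch3 KO T-ALL. Of the other 8 markers, 5 lay above every control in each WT T-ALL library, a separation that 8.42% of all genes tested showed. Egfl7, whose protein is secreted by endothelium, parted widely, from 0.87 to 1.52 in thymus and 2.70 to 4.47 in WT T-ALL. For Vwf, Cldn5, Tie1 and Tek, all at most 0.042 in thymus, the lowest WT T-ALL values were only 0.13, 0.14, 0.025 and 0.062. Tek did not pass the filter. Over the 14 WT T-ALL libraries, with both library sets pooled, Aqp1 had r = 0.09 with the endothelial list and 0.54 with the erythroid list. The part of these markers in the difference of Aqp1 was not tested.

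Rhag, whose product carries the Rh complex and conducts ammonia, ran from 2.53 to 5.82 in WT T-ALL with a median of 4.09. In the knockout libraries it stood at 4.63, 6.86 and 6.49. WT T-ALL exceeded thymus by 4.14 (SE 0.40, limma adjusted p = 3.24e-08) and Notch3 KO T-ALL exceeded it by 5.99 (SE 0.58, adjusted p = 1.1e-07). On chromosome 17 it covers 40811126 to 40840754 on the plus strand.

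The skeleton genes had lower means than the transporters in both T-ALL groups. Ank1, which encodes the ankyrin that links spectrin to band 3, ran from 1.91 to 4.71 in WT T-ALL with a median of 2.97 and stood at 3.94, 6.20 and 5.39 in Notch3 KO T-ALL. Its differences from thymus were 3.04 (SE 0.37, limma adjusted p = 7.36e-07) and 5.13 (SE 0.54, adjusted p = 2.75e-07). Ank1 lies on chromosome 8 (22974844 to 23150497, plus strand) and shares that span with 3 annotated genes on the opposite strand and with Gm15815 and Mir486 on its own. The library kit marks strand, but whether counting used it is not given in the sources used here.

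Sptb ran from 1.31 to 4.61 in WT T-ALL with a median of 2.57, and its knockout values were 3.86, 6.25 and 5.11. It exceeded thymus by 2.44 (SE 0.42, limma adjusted p = 5.13e-05) in WT T-ALL and by 4.77 (SE 0.61, adjusted p = 3.68e-06) in Notch3 KO T-ALL. On chromosome 12 (76580488 to 76710547, minus strand) its end touches Plekhg3 on the opposite strand.

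Epb42, the gene of protein 4.2, was the lowest member in 13 of the 17 T-ALL libraries, and Sptb was the lowest in the other 4. It ran from 0.69 to 4.25 in WT T-ALL with a median of 2.28, and WT 5 and WT 7 stayed below a scaled RPKM of 1. Knockout values were 3.30, 5.74 and 4.11. Differences from thymus were 2.32 (SE 0.40, limma adjusted p = 5.45e-05) and 4.37 (SE 0.58, adjusted p = 6.34e-06). The gene lies on chromosome 2 (121017891 to 121037072, minus strand).

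Both carbonic anhydrase genes stood high in the tumors. Car2 was the highest member in 14 of 17 T-ALL libraries, with WT T-ALL values from 5.19 to 9.06 (median 6.95) and knockout values of 7.84, 9.53 and 9.70. It had the highest starting level in thymus and still exceeded it by 4.00 (SE 0.43, limma adjusted p = 1.61e-07) in WT T-ALL and by 6.03 (SE 0.63, adjusted p = 2.82e-07) in Notch3 KO T-ALL. Car1, an isoform of red cells and gut, ran from 4.30 to 7.37 in WT T-ALL (median 5.39) and stood at 6.15, 6.23 and 7.32 in the knockout libraries, which exceeded thymus by 6.49 (SE 0.55, adjusted p = 1.96e-08). The genes lie close together on chromosome 3, Car1 at 14766216 to 14808368 on the minus strand and Car2 at 14886273 to 14900770 on the plus strand, with Car3 between them. Car3 did not pass the filter and averaged 0.02, 0.58 and 0.04 in thymus, WT T-ALL and Notch3 KO T-ALL. Its WT T-ALL values spread widely, from 0.045 to 4.19.

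By rank of the difference over all 11919 genes tested in WT T-ALL against thymus, Car1 was 3rd, Slc4a1 4th, Aqp1 6th, Rhag 18th, Car2 22nd, Ank1 82nd, Sptb 153rd and Epb42 171st. These ranks largely follow the level each gene reached, since 7 of the 8 started near 0, and Car2 is the gene for which a starting level was subtracted. In Notch3 KO T-ALL against thymus the ranks ran from 3 (Slc4a1) to 51 (Epb42).

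Against thymus, the values within each library set were also taken. Within set B (4 controls, 10 WT T-ALL libraries) the differences ran from 2.72 (Epb42) to 6.22 (Slc4a1), and all 8 were called, against 23.1% of the genes tested there that were called higher. Within set A (2 controls, 4 WT T-ALL libraries) they were smaller for every member, and Epb42 (1.34, limma adjusted p = 0.159) and Sptb (1.68, adjusted p = 0.0803) were not called, where 8.84% of the genes tested were called higher. For Notch3 KO T-ALL within set A all 8 were called, with differences from 4.38 (Epb42) to 8.34 (Slc4a1), against 15.3% of the genes tested there.

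The Notch3 KO tumors had higher mean values than WT T-ALL for all 8 members, but none of the 8 passed the threshold across 11677 genes, of which 0.591% were called higher and 0.0257% lower. The differences were 2.69 (SE 0.84, limma adjusted p = 0.182) for Slc4a1, 2.33 (SE 0.62, adjusted p = 0.109) for Sptb and 2.12 (SE 0.64, adjusted p = 0.164) for Aqp1. Ank1 (2.09), Epb42 (2.05), Car2 (2.03) and Rhag (1.85) followed with adjusted p from 0.103 to 0.197. Car1 had the smallest difference, 0.90 (SE 0.57, adjusted p = 0.799). The members' median difference was 2.07, beside 0.00 over all genes tested.

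Before adjustment, 7 of the 8 had a limma p under 0.05, Car1 being the exception, where 6.3% of all genes had such a p in this direction. Exact two-sided permutation tests over the 680 splits of 3 against 14 libraries gave unadjusted p from 0.00441 (Sptb) to 0.0147 (Slc4a1) for these 7 and 0.174 for Car1. KO 2 and KO 3 lay above every WT T-ALL library for Ank1, Sptb, Slc4a1, Rhag, Aqp1 and Car2, and 4.6% of all genes had at least 2 of 3 knockout libraries above all of WT T-ALL. For Epb42 only KO 2 did so, and for Car1 none. KO 1 lay inside the WT T-ALL range for all 8 members and above the WT T-ALL median for all 8.

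**Figure D2:**
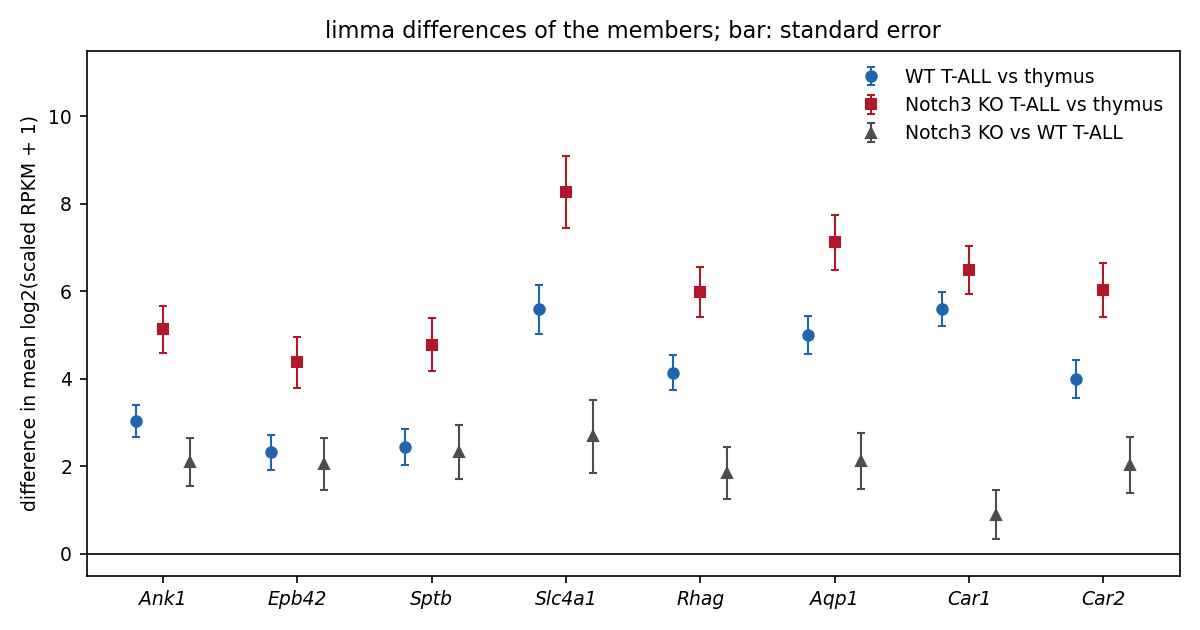
Differences in mean log2(scaled RPKM + 1) of each gene in the 3 comparisons, with limma standard errors as bars: circles are WT T-ALL against thymus, squares Notch3 KO T-ALL against thymus and triangles Notch3 KO against WT T-ALL. Triangles lie between 1.85 (Rhag) and 2.69 (Slc4a1) for 7 genes and at 0.90 for Car1, and none of the triangles passed the adjusted threshold.

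Single libraries and the choice of fit decided this count. Without KO 1, Ank1 (2.71, limma adjusted p = 0.0273) and Sptb (2.94, adjusted p = 0.0415) were called, where 1.69% of genes were called higher. Without WT 108, the WT T-ALL library with the highest sum of members, Ank1, Epb42 and Sptb were called with adjusted p from 0.0345 to 0.0477, against 1.3% of genes. Without KO 2 the differences fell to between 1.37 (Epb42) and 1.97 (Slc4a1) for the 7 members other than Car1, and none was called, where 0.0259% of genes were called higher. With thymus in the same fit, Ank1, Epb42, Sptb and Aqp1 were called with adjusted p from 0.0213 to 0.0464, against 1.94% of genes.

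All 3 knockout libraries belong to set A, and 10 of the 14 WT T-ALL libraries to set B, so the sets bear on this comparison. Within set A all 3 knockout libraries lay above all 4 WT T-ALL libraries for 8 of 8 members, Car1 included, where 6.44% of all genes did. The gaps between the lowest knockout and the highest WT T-ALL library of the set were 1.91 for Slc4a1, 1.30 for Sptb and 1.24 for Epb42, and under 0.5 for the other members. The differences within set A were larger than over all libraries, 4.35 for Slc4a1 and 1.16 for Car1 at the ends, but with 7 libraries no member was called (adjusted p from 0.0851 to 0.306), and 0.109% of genes were called higher. With the set as a term in the fit over all 17 libraries, Slc4a1 (4.35, limma adjusted p = 0.0121), Epb42 (3.05, adjusted p = 0.0203) and Sptb (3.24, adjusted p = 0.0253) were called, where 1.29% of genes were called higher. The set was drawn from the data, so these values describe it and its part in the result was not tested further.

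The sets also parted the WT T-ALL libraries themselves at 1 member. For Slc4a1 the 4 set A libraries ran from 2.95 to 5.01 and the 10 set B libraries from 5.39 to 7.89, without overlap, a split that 0.42% of all genes tested showed in this direction. For Epb42, 9 of 10 set B libraries lay above all of set A, and 1.4% of genes had at least 9. For Ank1, Car1 and Car2 only 4 of 10 did, and the median of Car1 was 5.51 in set A and 5.39 in set B.

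Tumor by tumor, the members rose and fell largely together. The sum of their scaled RPKM ran from 90.7 in WT 5 to 1169 in WT 108, and was 532.6, 2336 and 1671 in KO 1, KO 2 and KO 3. Ranked over the 17 T-ALL libraries from high to low, WT 5 held places 15 to 17 for every member, and WT 108 held places 2 to 4. KO 3 held places 1 to 3. KO 2 was first for 6 members, second for Car2 and only 6th for Car1.

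**Figure D3:**
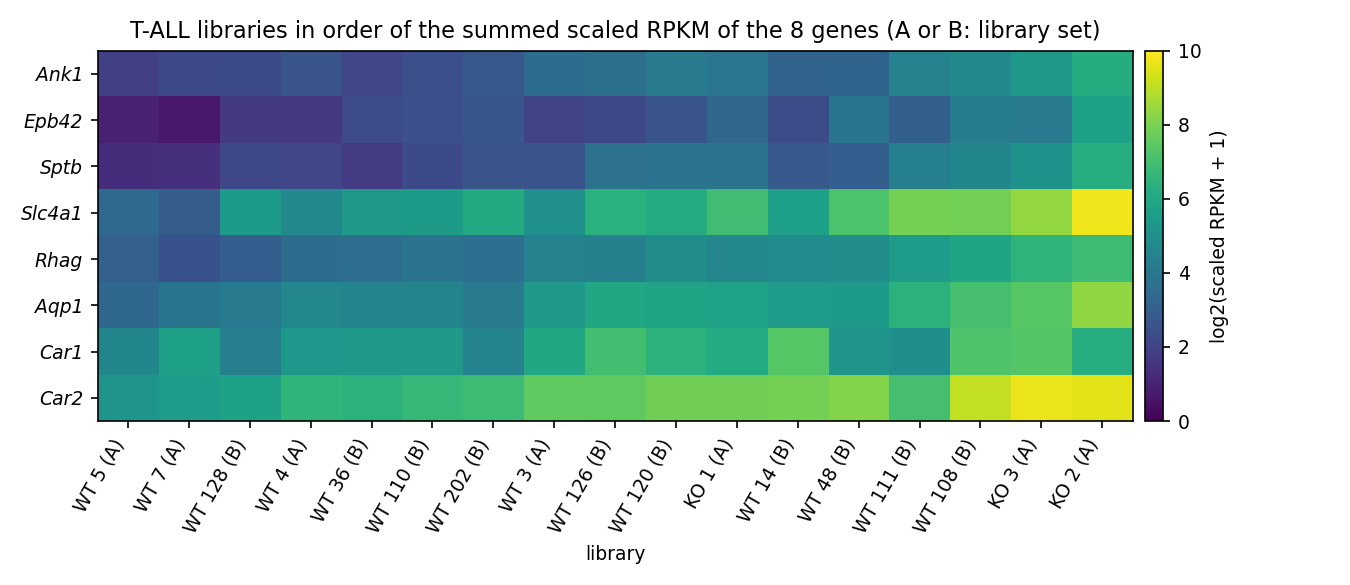
Heat map of the 8 genes (rows) in the 17 T-ALL libraries (columns, in order of the summed scaled RPKM of the 8 genes; A and B give the library set), with color for log2(scaled RPKM + 1) from 0 to 10. Rows brighten from WT 5 at the left to KO 2 at the right, and the Car1 row breaks the order at WT 14, WT 48, WT 111 and KO 2.

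Over the 14 WT T-ALL libraries the 28 pairs of members correlated with Pearson r from 0.26 to 0.96 and a median of 0.83, given as a description of libraries that share scaling and unknown depth. The closest pair was Ank1 and Sptb (r = 0.96), which encode directly linked parts of the skeleton. The 21 pairs without Car1 ran from 0.70 to 0.96. The 7 pairs with Car1 ran from 0.26, with Slc4a1, to 0.70, with a median of 0.56. Within the 10 libraries of set B the pairs without Car1 ran from 0.59 to 0.99 and those with Car1 from 0.17 to 0.74.

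Car1 and Slc4a1 had nearly the same mean in WT T-ALL, 5.67 ± 1.01 and 5.69 ± 1.44 (SD, n = 14), yet differed widely in single tumors. Car1 was higher in 7 libraries, all 4 of set A among them, and Slc4a1 in the other 7, and their mean difference was 0.01 with an SD of 1.53. Car1 exceeded Slc4a1 by 2.72 in WT 7, the library with the high mitochondrial share, and by 1.72 in WT 14, the next in order. In WT 111 the order was turned, with Car1 at 4.98 and Slc4a1 at 7.89. WT 14 held the highest Car1 value of all 17 libraries (7.37) but only the 10th highest Slc4a1 value (5.66). All 3 knockout libraries had less Car1 than Slc4a1, with differences of -0.77, -3.56 and -1.08.

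**Figure D4:**
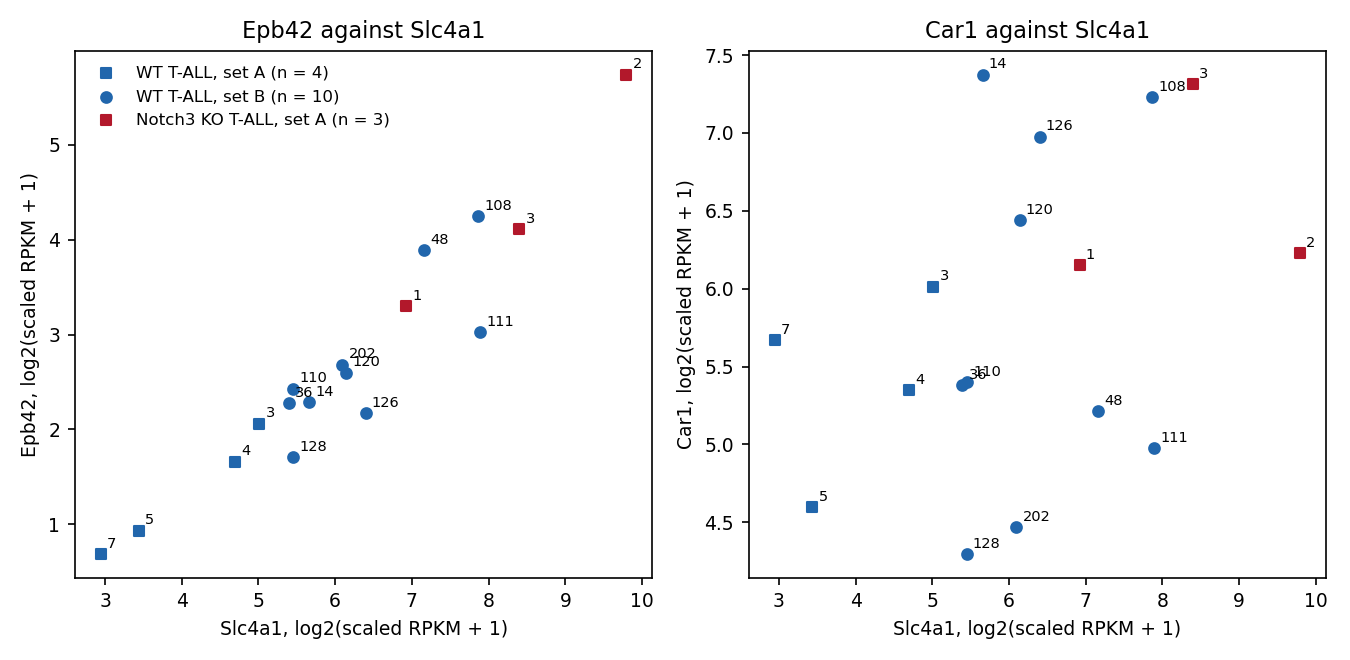
Epb42 (left) and Car1 (right) against Slc4a1 in the 17 T-ALL libraries, all axes in log2(scaled RPKM + 1), with WT T-ALL in blue, Notch3 KO T-ALL in red, set A as squares, set B as circles and the library number beside each point. Epb42 follows Slc4a1 across the tumors, while Car1 at a given Slc4a1 level spans most of its range.

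Whether the members shifted unequally between the T-ALL groups was tested on their level relative to Slc4a1 in the same library. Slc4a1 has the largest difference of the 8, so all 7 others are lower in the knockout libraries on this scale by construction, from -0.35 for Sptb to -0.84 for Rhag and -1.79 for Car1. Over all libraries none of these 7 differences had an unadjusted p under 0.05 in the exact permutation test (0.0868 for Car1, 0.0956 to 0.409 for the others). Within set A, which was drawn from the data, Slc4a1 itself parts the groups by 1.91, so values relative to it are given without a test. Car1 minus Slc4a1 ran from 0.66 to 2.72 in the 4 WT T-ALL libraries of set A and from -3.56 to -0.77 in the 3 knockout libraries, a difference of -3.19 (-2.74 without WT 7). The other 6 members also lay lower without overlap on this scale, with differences from -1.11 (Sptb) to -1.75 (Rhag). The choice of Slc4a1 as reference enters each of these differences, so the separation is not read as a result about these genes.

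The order of the members within tumors was mostly kept. In WT T-ALL the medians fell from Car2 over Slc4a1, Car1, Aqp1, Rhag, Ank1 and Sptb to Epb42. Aqp1 exceeded Rhag, and Rhag exceeded Ank1, in 14 of 14 libraries. Car2 exceeded Slc4a1 in 13 of 14, Ank1 exceeded Sptb in 13 and Sptb exceeded Epb42 in 10. Car1 exceeded Aqp1 in 12. The mean difference between neighbors was smaller than its SD over single libraries for Slc4a1 and Car1 (0.01 ± 1.53), Car1 and Aqp1 (0.62 ± 0.83) and Sptb and Epb42 (0.41 ± 0.68). Of these pairs, only Slc4a1 and Car1 were split evenly over the libraries. In KO 2 and KO 3 Car1 lay below Aqp1, while in KO 1 it lay above, and KO 2 was the only knockout library with more Slc4a1 than Car2.

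Hemoglobin RNA, the main product of maturing erythroblasts, had its highest r with Epb42 and Slc4a1 over the WT tumors of both library sets pooled. Within set B r was highest for Epb42 (0.66) and Car2 (0.53), and Slc4a1 came after them (0.47). The sum over the 9 listed hemoglobin genes spanned 41.9 to 685.8 scaled RPKM in controls, 740 to 53360 in WT tumors and 32200 to 103000 in Notch3 KO tumors. Hemoglobin genes are near-identical copies whose reads may be split between rows (Hbb-bt and Hbb-b2 carry the same values in every library), so their sum was used here. The 4 WT T-ALL libraries of set A had sums of 740 to 3077, all below the 10 of set B, which began at 4062, so relations over the 14 libraries carry the difference between the sets. The permutations behind the p-values below mixed both sets and do not remove that difference. Over the 14 WT T-ALL libraries Epb42 followed log2 of the sum most closely (Pearson r = 0.85, permutation p = 0.00011; Spearman rho = 0.85, permutation p = 0.0003). Slc4a1 came next (r = 0.82, permutation p = 0.0002; rho = 0.78, permutation p = 0.00144). Car1 did not follow it (r = 0.21, permutation p = 0.465; rho = 0.13, permutation p = 0.649).

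The other 5 members lay between, with r = 0.68 for Car2, 0.65 for Rhag, 0.60 for Sptb, 0.54 for Aqp1 and 0.45 for Ank1. These 8 relations were computed together and their p-values are unadjusted. Without WT 48 and WT 7, the libraries farthest from the median sum, r was 0.74 for Epb42, 0.72 for Slc4a1 and 0.36 for Car1. Within the 10 libraries of set B it was 0.66 for Epb42, 0.53 for Car2, 0.47 for Slc4a1, 0.40 for Rhag, 0.24 for Aqp1, 0.21 for Sptb, 0.20 for Ank1 and 0.13 for Car1, each below its value over both sets. Set A holds too few libraries for a value.

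**Figure D5:**
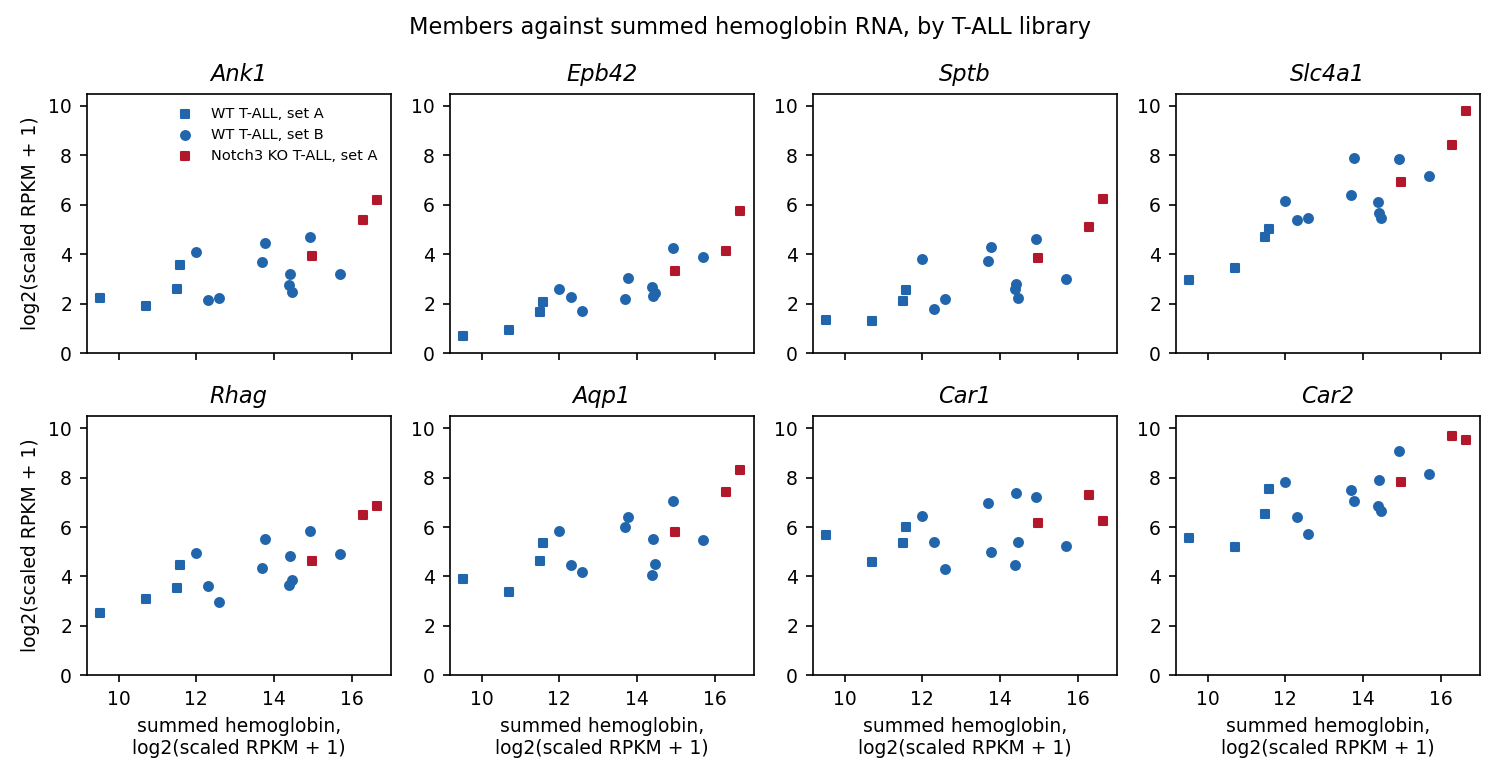
Each gene (log2(scaled RPKM + 1), vertical axes) against summed hemoglobin RNA (log2(scaled RPKM + 1), horizontal axes) in the 17 T-ALL libraries, with WT T-ALL in blue, Notch3 KO T-ALL in red, set A as squares and set B as circles. Epb42 and Slc4a1 climb with hemoglobin over the 14 WT T-ALL libraries (r = 0.85 and 0.82; 0.66 and 0.47 within set B), and Car1 does not (r = 0.21).

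The other marker lists read beside the members were those of cells that spleen or thymus can hold, and their part in the members' differences was not tested. Of the 5 listed erythroid markers that are no hemoglobin genes, 5 rose in WT T-ALL and 5 in Notch3 KO T-ALL against thymus. Red pulp macrophage markers rose for 9 and 10 of 10, megakaryocyte markers for 7 and 7 of 7 and neutrophil markers for 7 and 3 of 7. Over all genes tested, 29.3% rose in WT T-ALL and 21.2% in Notch3 KO T-ALL, and 22.3% and 16.3% fell. Of 4 tested B cell markers all fell in both, and 4 of 8 thymocyte markers fell in both. Of 6 thymic epithelium markers 2 were tested, and 1 of them fell in both. Summed macrophage markers spanned 8.21 to 64.6 scaled RPKM in controls, 34.2 to 527 in WT tumors and 340.3 to 608.8 in Notch3 KO tumors. The megakaryocyte sums were at most 1.47 in controls, at most 205.3 in WT tumors and between 63.6 and 194.2 in Notch3 KO tumors. Thymocyte markers stayed abundant in the spleens, with sums from 1025 to 2579 (WT) and 1433 to 1651 (Notch3 KO), beside 3094 to 4197 in controls.

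Other genes of the red cell membrane skeleton followed in part. Of 13 such genes (the members Ank1, Epb42 and Sptb among them), 8 rose and 3 fell in WT T-ALL against thymus, and 8 rose and 1 fell in Notch3 KO T-ALL. Of all genes tested, 29.3% rose and 22.3% fell in WT T-ALL, and 21.2% rose and 16.3% fell in Notch3 KO T-ALL. The 10 that are no members gave 5 rises and 3 falls, and 5 rises and 1 fall. Those that fell in WT T-ALL were Epb41 (-0.58), Add1 (-0.39) and Add3 (-2.15), which are used by many cell types, and Add3 also fell in Notch3 KO T-ALL (-2.30). Tpm3, a tropomyosin gene with the highest levels of the non-members in this list, averaged 7.85 in thymus, 7.66 in WT T-ALL and 7.72 in Notch3 KO T-ALL and was not called.

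Between the T-ALL groups, 2 genes of the skeleton list were called higher in the knockout tumors, where 0.591% of all genes tested were. The 2 genes were Dmtn, which encodes the actin-bundling protein dematin (2.63, limma adjusted p = 0.0204), and Tmod1, which caps actin filaments at the lattice junctions (2.62, adjusted p = 0.000718). Dmtn ran at a mean of 2.18 in WT T-ALL and 4.82 in Notch3 KO T-ALL, and Tmod1 at 1.24 and 3.87. No gene of this list was called lower. All 3 knockout libraries belong to set A, and without KO 2 only 0.0259% of genes tested were called higher in this comparison.

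Of 22 surface and transport genes (Slc4a1, Rhag and Aqp1 among them), 17 rose and 2 fell in WT T-ALL and 17 rose in Notch3 KO T-ALL against thymus. Without the members these were 14 rises of 19 in each. Among all genes tested, 29.3% rose and 22.3% fell in WT T-ALL, and 21.2% rose in Notch3 KO T-ALL. The genes that fell were Cd47 (-0.46) and the glucose transporter gene Slc2a1 (-0.55). None of the 22 was called between the T-ALL groups.

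Relatives of the members were read beside them. Of 16 carbonic anhydrase genes, 5 passed the filter. Beside Car1 and Car2, Car12 rose (1.48 in WT T-ALL and 1.46 in Notch3 KO T-ALL), Car15 fell in WT T-ALL (-0.67) and Car13 rose in Notch3 KO T-ALL (0.71). Of 26 listed paralogs that serve other tissues, 8 passed the filter, of which 2 rose and 5 fell in WT T-ALL and 2 rose and 4 fell in Notch3 KO T-ALL, beside the 29.3% and 21.2% of all genes tested that rose and the 22.3% and 16.3% that fell. The rises were the transglutaminases Tgm1 and Tgm2 (relatives of Epb42), and the largest fall was that of F13a1 (-2.75 and -2.27). Sptbn1, the β-spectrin of other cells, fell by 0.64 and 0.93, and Aqp11 fell by 1.55 and 1.68. None of these paralogs was called between the T-ALL groups.

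Of 12 erythroid regulators and heme enzymes, 11 rose in WT T-ALL and 12 in Notch3 KO T-ALL against thymus, and none was called between the T-ALL groups. Rises made up 29.3% and 21.2% of all genes tested against thymus. Klf1, a transcription factor of red cell genes, had differences of 3.71 and 5.51, and Alas2, which starts heme synthesis in red cells, 4.95 and 7.39. Slc25a37, the mitochondrial iron importer, was the one not called in WT T-ALL (0.33, limma adjusted p = 0.354).

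Over the 17 T-ALL libraries, genes most like the mean of the standardized members included Rhd (Pearson r = 0.983), which encodes the other part of the Rh complex, Tspan33 (0.982), Tspo2 (0.974) and Cldn13 (0.973). The gene closest to a single member differed between members. It was Tspan33 for Ank1 (r = 0.986), Trim10 for Epb42 (0.978), Tmcc2 for Slc4a1 (0.971) and Rhd for Aqp1 (0.979). Sptb was closest to Ank1 (0.981), and Rhag to Tspan33 and Tspo2 (0.969 each). For Car1 the closest were Gstm5 (0.895), Nags (0.894) and Sdsl (0.878), and none of the other 7 members was among these 3. These values pool WT and Notch3 KO T-ALL, whose means differ more for some genes than for others, which can move r unequally. Over the 14 WT T-ALL libraries alone r with the standardized mean was 0.968 for Rhd, 0.969 for Tspan33, 0.972 for Tspo2 and 0.956 for Cldn13. The closest genes named for Car1 there had r = 0.897 (Gstm5), 0.902 (Nags) and 0.853 (Sdsl).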

How the data were processed

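The authors mapped 100 bp paired-end reads of stranded mRNA libraries (KAPA kit) to mm10 with the OSA aligner in ArrayStudio and computed RPKM there. The deposited values are log2 of RPKM, per the values themselves log2(scaled RPKM + 1) with a 75th percentile between 3.458 and 3.459 in each of 23 libraries. They were used as deposited. The study's methods give 1 approximate depth for all libraries, and that of single libraries is unknown. The filter kept genes that reached a scaled RPKM of 1 in 3 or more libraries of a fit. Tests used limma 3.58.1 (R 4.3.3; lmFit, then robust eBayes with a trend), with Benjamini-Hochberg adjustment over all genes kept, and an adjusted p under 0.05 was a call. Both comparisons with thymus came from 1 fit of the 3 groups, and the comparison of the T-ALL groups from a fit of those groups. The fit was tested on simulated data. Single genes were also tested by exact permutation. Libraries count as replicates because the labels number them as separate samples. The labels do not say whether thymus controls were separate animals, so p-values then measure only the spread between these samples. Positions are GENCODE M21 on GRCm38. Lists of red cell genes, relatives and cell type markers were named by these rules: counts for each list, and by name the genes with the highest level, the largest difference or a direction other than most of their list, plus the genes most correlated with the members. The members and lists were chosen with earlier results of these data known. List genes Ahsp and Sptbn5 were not found in the table. Alternatives changed the offset (0.1), the filter (5, or none), normalization (quantile), the groups fitted, single libraries and the replicate block. The library set as a term, libraries of 1 set and averaging of close controls were added after seeing the data. Some genes that these rules name are not reported here.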

Additional observations from a re-analysis of the deposited data

Results flagged for a closer look

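Rhag was set apart in thymus by 1 control. Thymus 1 stood at 0.041 and the other 5 controls were listed at 0, so the gap between the highest control and its nearest neighbor made up the whole range (a ratio of 1.0). With 5 controls at 0, any value above 0 in the last one gives this ratio, so it follows from the floor of the scale, and the usual chance rate of about 1 group in 20 does not apply to it. The value of thymus 1 lies below a scaled RPKM of 1 and far below the lowest T-ALL value of Rhag, 2.53.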

How the results depend on the processing

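All 8 members were called against thymus, for both T-ALL groups, under every setting that gave a value for them, except Epb42 and Sptb within set A in WT T-ALL. Between the T-ALL groups the count of members called was 0 as reported, 4 with all 3 groups in the fit, 3 with the library set as a term and 0 to 3 when 1 library was left out (3 without WT 108, 2 without KO 1). The cause was not tested. No difference of a member changed sign under any setting run. The count of all genes called between the T-ALL groups was 72 as reported and 39 with the offset of 0.1, 6 with the filter at 5, 134 without a filter, 254 with all 3 groups, 159 with the set as a term, 13 within set A, 158 without WT 108, and 205, 3 and 12 without KO 1, KO 2 and KO 3. It was 2825 within set A and 2859 without KO 3, against 4475, for Notch3 KO T-ALL and thymus, and 1709 within set A, against 6150, for WT T-ALL and thymus. Quantile normalization turned the split for Notch3 KO T-ALL and thymus from 2527 higher and 1948 lower to 2082 and 2396, and moved the median of all genes from 0.08 to -0.05. The values gave no sign that label numbers pair the samples, but 3 shared numbers per comparison cannot decide it. Deviations of same-numbered libraries correlated between -0.24 and 0.15, and in each group 1 of 3 libraries correlated best with its own number. With the replicate block, WT T-ALL and thymus (numbers 3, 4 and 5) gave 1942 calls, against 2262 in the same libraries without it, and Notch3 KO T-ALL and thymus gave 3630 against 3802. Member differences under the block ran from 1.69 (Sptb) to 5.24 (Car1) and from 4.37 (Epb42) to 8.24 (Slc4a1), all called, and Epb42 in WT T-ALL could not be fitted because it missed the filter. The T-ALL groups share only the number 3, so no block was possible there. Without the depth of single libraries, values near 0 in thymus set no detection limit.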

Other observations

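Hemoglobin and some of the membrane genes parted in 1 control. Thymus 3 had a summed hemoglobin level of 685.8 scaled RPKM, close to the 740 of the WT T-ALL library with the least hemoglobin, WT 7. WT 7 is the library with the high mitochondrial share. Several members lay far apart in this pair. Slc4a1 was at 0.18 in thymus 3 and 2.95 in WT 7, Rhag was listed at 0 against 2.53, Aqp1 was at 0.058 against 3.88, and Car1 was at 0.045 against 5.67. Others were closer, with Epb42 at 0.031 against 0.69, both below a scaled RPKM of 1, and Sptb at 0.38 against 1.35. Thymus 3 did hold the highest Slc4a1, Sptb, Epb42 and Car2 values of the 6 controls, by small margins. This pair of libraries was chosen after its values were seen.

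The genes beside Slc4a1 on chromosome 11, within 100 kb, did not move as a block. Slc25a39, a mitochondrial carrier gene used in red cell heme metabolism, averaged 3.99 in thymus, 5.33 in WT T-ALL and 6.30 in Notch3 KO T-ALL, and its r with Slc4a1 over the 17 T-ALL libraries was 0.72. Itga2b, a platelet integrin gene, averaged 0.56, 1.68 and 3.49, with r = 0.52. Ubtf, a general nucleolar factor, averaged 5.90, 5.74 and 6.15 (r = 0.21), and Tmub2 4.29, 3.85 and 3.84 (r = -0.42). These correlations describe 17 libraries of 2 groups and carry no test.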
